A study of Mus musculus with 6 samples.

Results

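The genes described here encode the proteins of the cell's 2 ribosomes, measured in mouse regulatory T cells (Treg). A rule on names drew them from the deposited gene table, and it was set with earlier results of these data known. It matched 79 names starting Rpl or Rps for the cytosolic ribosome and 76 names starting Mrpl or Mrps for the mitochondrial ribosome. These are 155 of 14777 genes in all. Names that mark processed pseudogenes were left out, 111 of them for the cytosolic ribosome and 2 for the mitochondrial ribosome. A name does not by itself show a coding gene: 77 of the 79 cytosolic members have a coding transcript in the GENCODE M21 annotation. By name, 32 cytosolic members belong to the small subunit and 47 to the large subunit, and 28 mitochondrial members belong to the small subunit and 48 to the large subunit. The rule missed a few ribosomal proteins with other names, such as Rps3a1, Fau and Rack1, some of which are given below.

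The study compared Treg that make full-length FOXP3 with Treg whose Foxp3 gene lacks exon 2. FOXP3 is the transcription factor that defines Treg. Naïve CD4 T cells of C57BL/6 background were turned into induced Treg over 3 days by coated anti-CD3 at 1 µg/ml, anti-CD28 at 1 µg/ml, human TGFβ at 5 ng/ml and human IL-2 at 20 ng/ml. The group FOXP3 FL has 3 libraries of polyA RNA and the group FOXP3 ΔE2, with the exon 2 deletion, has the other 3, and both groups had the same culture. Over 90% of the cells were FOXP3+, per the labels, so the values are those of Treg induced in culture, not of Treg taken from an animal, with a minority of cells that were not FOXP3+. Separate animals or cultures are not named for the replicates in the labels, nor is the age of the mice. The p-values therefore reflect library-to-library spread, part of which may be technical. In bulk RNA of this kind, a change in cell makeup and a change in RNA per cell cannot be told apart.

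Total counts were 13307155 to 16140432 per library. Treg and T cell markers were present in every library: Il2ra, a subunit of the IL-2 receptor, lay between 4538 and 6088 CPM (counts scaled to a common library size), and Foxp3 between 335.0 and 446.6 CPM. Foxp3 did not separate the groups, and a count over the whole gene does not show whether exon 2 was present. At an adjusted p under 0.05 in edgeR's quasi-likelihood test, 3.75% of all genes tested were called higher and 2.43% lower. With the replicate number as a block these shares were 11.5% and 10.1%. Of 6 Treg markers 0 were called, or 1 higher and 1 lower with the block. Their fitted differences went both ways, 2 of 6 above 0, with sums of 6513 to 7226 CPM in FOXP3 FL and 6291 to 8054 CPM in FOXP3 ΔE2. In FOXP3 ΔE2 replicates 1 and 2, 75.4% and 75.5% of raw reads were assigned to a gene, against 69.3% to 71.5% in the other 4 libraries. The share of reads that crossed a splice junction was 31.3% and 31.0% in those same 2 libraries and 26.4% to 28.1% in the others. Of 7 T cell markers, 1 was called higher in FOXP3 ΔE2 (Cd4), or all 7 with the replicate number as a block, and their summed level was 6082 to 6872 CPM in FOXP3 FL and 7972 to 9181 CPM in FOXP3 ΔE2. Both CD8 T cell markers, Cd8a and Cd8b1, were tested and neither was called, or 1 with the block, with sums of 29.0 to 53.0 CPM in FOXP3 FL and 50.8 to 138 CPM in FOXP3 ΔE2, the highest in replicate 1. Of 5 NK cell markers 3 were tested and 0 called, or 1 with the block, with sums of 59.1 to 66.6 and 77.7 to 111 CPM, the highest in FOXP3 ΔE2 replicate 1. Of 9 myeloid markers 1 was tested and not called. It was at 0.18 to 1.77 CPM in FOXP3 FL and 14.7, 2.32 and 0.76 CPM in FOXP3 ΔE2 replicates 1 to 3. Of the B cell, dendritic cell, and erythroid and platelet markers, 5, 1 and 2 were tested, and 0 were called with or without the block. Of 10 proliferation genes 0 were called, with sums of 5371 to 5964 and 5682 to 6771 CPM. Of 12 genes tested that mark RNA quality (nuclear RNAs, histone and stress genes) 0 were called, or 2 higher and 3 lower with the block. Their sums were 1805, 1751 and 2038 CPM in FOXP3 FL and 1749, 1740 and 2216 CPM in FOXP3 ΔE2, highest in the 2 libraries numbered 3.

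Cytosolic ribosomes translate nearly all cellular messages, and activated T cells make many of them as they grow and divide. Most cytosolic ribosomal protein transcripts begin with a C followed by a run of pyrimidines, the terminal oligopyrimidine (TOP) tract through which the growth regulator mTOR controls their translation. Mitochondrial ribosomes are a separate machine inside mitochondria. Their proteins are encoded in the nucleus and imported, and they translate the few respiratory chain subunits that mitochondrial DNA encodes.

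The start of the transcript is a sequence feature on which the 2 sets differ and which the choice by name did not use. A tract was counted for a gene where any of its RefSeq transcript starts in GRCm38.p6 met a rule. The start had to be a C followed, on the transcribed strand, by C or T only, for 5 or more bases in all. A gene with more annotated starts thus had more chances to match. RefSeq starts matched 57 of 79 cytosolic and 67 of 76 mitochondrial members. The tract was found at 13 of the 57 (22.8%), at 0 of the 67 and at 813 of 27025 genes in all (3.01%). Because 1 base more or less in an annotated start makes or breaks a match, the lack of a tract in this window says nothing about how a gene is regulated. The 30 bases around the start (15 before it, 15 from it) are printed 5′ to 3′ for the 3 cytosolic members with the longest tracts and for the 4 members on which the results below turn. Capitals mark the tract, or the first transcribed base where no tract was counted.
Rpl15 (chr14:18270972-18271001, minus strand): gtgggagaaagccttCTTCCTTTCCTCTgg
Rpl35 (chr2:39005117-39005146, minus strand): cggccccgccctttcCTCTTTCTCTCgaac
Rps10 (chr17:27635230-27635259, minus strand): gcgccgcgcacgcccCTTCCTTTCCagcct
Mrps18b (chr17:35916426-35916455, minus strand): cattgcggggcgtgtCcttggcccacccta
Mrps5 (chr2:127587411-127587440, plus strand): gctgctccggctccaGcatggcggcggccg
Rps2 (chr17:24720048-24720077, plus strand): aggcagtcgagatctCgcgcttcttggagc
Rps27l (chr9:66946071-66946100, plus strand): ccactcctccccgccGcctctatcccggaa
The tracts of Rpl15, Rpl35 and Rps10 are 13, 11 and 10 bases long. The 3 genes with these long tracts had fitted log2 differences of -0.00, -0.02 and -0.03 (FOXP3 ΔE2 minus FOXP3 FL), all near the cytosolic median of 0.02.

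All 155 members were abundant enough to be tested among 14632 genes. Levels below are CPM scaled by the trimmed mean of M-values (TMM), and levels compared between genes are RPKM, that is CPM per kilobase of the deposited exon length. Per length, the cytosolic members were the higher set, with a median of 343 RPKM against 18.5 RPKM for the mitochondrial members and 4.91 RPKM over all genes tested. Rpl36, Rpl32 and Rplp1 had the highest cytosolic levels, at 1905, 1722 and 1658 RPKM. Rps4l, Rpl6l and Rpl24 had the lowest, at 3.16, 6.95 and 7.48 RPKM. Of the mitochondrial members Mrps21, Mrpl18 and Mrpl28 were highest, at 155, 133 and 107 RPKM, and Mrps30, Mrps35 and Mrps26 lowest, at 1.55, 2.40 and 3.29 RPKM. The exon length joins all annotated exons of a gene, so RPKM understates a gene with long minor isoforms.

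Cytosolic levels, low or high, need care because many of these genes have processed copies in the genome. Whether copies account for a low level was not tested. In the GENCODE M21 annotation, 70 of 77 cytosolic members with a coding transcript have at least 1 transcript of another gene that matches their coding sequence at 95% identity or more over at least 80% of it, with a median of 5 copies and a maximum of 57. Of the mitochondrial members 14 of 76 have such a copy, with a maximum of 4. Rpl24 has 4 copies, and the labels and headers do not state how reads that match several places were counted, so levels of cytosolic members with copies are uncertain. Rps4l, the lowest cytosolic member, has no coding transcript in GENCODE M21, so no copies were searched for it.

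**Figure D1:**
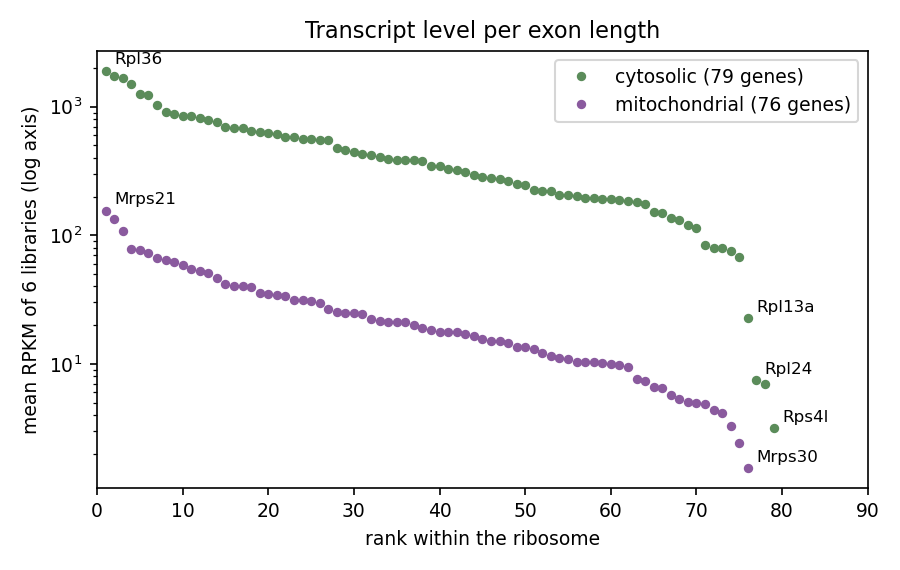
Mean level of each ribosomal protein gene over the 6 libraries (RPKM, log axis) against its rank within its ribosome, cytosolic genes in green and mitochondrial genes in purple. The cytosolic genes run from Rpl36 at 1905 to Rps4l at 3.16 RPKM, and the mitochondrial genes from Mrps21 at 155 to Mrps30 at 1.55 RPKM.

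For the cytosolic ribosome, no member passed the test between FOXP3 ΔE2 and FOXP3 FL. In edgeR's quasi-likelihood test with Benjamini-Hochberg adjustment over all genes, 0 of 79 were higher and 0 lower at an adjusted p under 0.05, where 6.17% of all genes tested were called (3.75% higher and 2.43% lower). At an unadjusted p under 0.05, 1 member passed, where 22.5% of all genes did. DESeq2, limma-voom and the edgeR likelihood ratio test also called 0 cytosolic members in either direction. The median log2 fold change was 0.02, with a middle 50% of genes from -0.02 to 0.07, against -0.00 for all genes. For 77 of 79 members the 95% interval of the difference lay within 1.5-fold in either direction, which held for 48.7% of all genes. The exceptions are Rps2 and Rps4l, and Rps4l is the least abundant cytosolic member.

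Summed over the 79 cytosolic members, the level was 57645, 57332 and 52189 CPM in FOXP3 FL replicates 1 to 3 and 64258, 57193 and 51451 CPM in FOXP3 ΔE2 replicates 1 to 3. The group means were 55722 ± 3064 and 57634 ± 6415 CPM (SD, n = 3 each), a log2 ratio of 0.05, so the groups overlapped and differed by less than their spread. FOXP3 ΔE2 replicate 1 was the highest library and FOXP3 ΔE2 replicate 3 the lowest, so the range of the FOXP3 ΔE2 group enclosed that of FOXP3 FL.

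The cytosolic members moved together from library to library more than they moved between groups. In FOXP3 ΔE2 replicate 1, 77 of 79 members were above their own mean over the 6 libraries, and 68 (86.1%) had their highest value there, against 14.7% of all genes. In FOXP3 FL replicate 3 and FOXP3 ΔE2 replicate 3, 1 and 4 of 79 members were above their own mean. The median deviation from a gene's own mean was 0.17 on the log2 scale in FOXP3 ΔE2 replicate 1 and -0.12 and -0.14 in the 2 libraries numbered 3. Since all members share each library's composition, these 79 genes are not 79 separate observations.

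**Figure D2:**
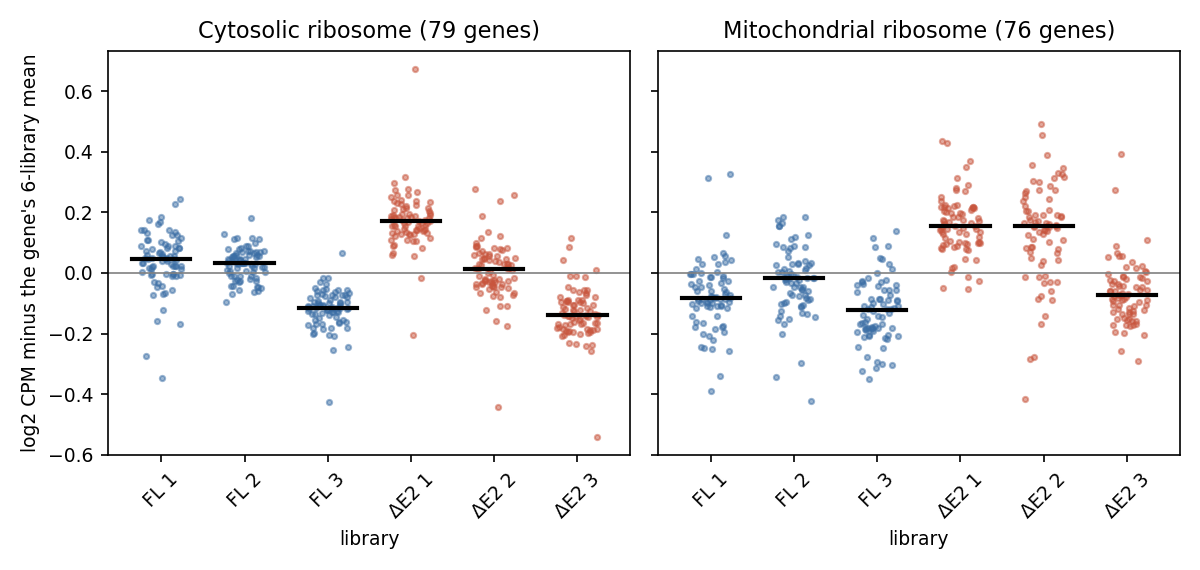
Deviation of each gene's log2 CPM from its own mean over the 6 libraries (vertical axis), 1 point per gene and 1 column per library, with the median as a black bar, for the 79 cytosolic (left) and 76 mitochondrial (right) genes. Cytosolic medians run from -0.14 in ΔE2 replicate 3 to 0.17 in ΔE2 replicate 1 and overlap between groups, while mitochondrial medians are 0.15 and 0.16 in ΔE2 replicates 1 and 2 and below 0 in the other 4 libraries.

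In the small subunit, Rps27l had the smallest p upward and Rps2 the smallest p downward. Rps27l is a paralogue of Rps27 that p53 is known to induce. It had 124.7, 153.2 and 150.8 CPM in FOXP3 FL and 175.3, 187.3 and 168.5 CPM in FOXP3 ΔE2. All 3 FOXP3 ΔE2 libraries lay above all 3 FOXP3 FL libraries, but its log2 difference of 0.31 ± 0.12 (SE) gave an adjusted p of 0.127 in edgeR's quasi-likelihood test. With the replicate number as a block in the same edgeR test, the adjusted p was 0.00883. P-values of the block fit rest mostly on a spread shared over genes. The main paralogue Rps27 had a log2 difference of -0.00 and an edgeR adjusted p of 0.997, and a level of 839 RPKM against 196 RPKM for Rps27l.

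Rps2 encodes a protein near the entry of the mRNA channel. Its levels were 468.1, 448.2 and 413.8 CPM in FOXP3 FL and 455.4, 290.8 and 330.7 CPM in FOXP3 ΔE2. FOXP3 ΔE2 replicate 1 lay among the FOXP3 FL libraries and the other 2 lay below them, with a log2 difference of -0.30 ± 0.15 (SE) and an edgeR adjusted p of 0.228. Without FOXP3 ΔE2 replicate 1 the difference was -0.51 with an edgeR adjusted p of 0.0220, and with the replicate block it was -0.33 with an adjusted p of 0.00886. Its exons overlap those of the small nucleolar RNA host gene Snhg9 on the other strand and it has 18 near-identical copies, so its count is among the uncertain ones. With the block these 2 genes were the cytosolic members called, 1.27% higher and 1.27% lower, where the block called 21.5% of all genes, 11.5% higher and 10.1% lower.

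Other small subunit members did not pass. Rps28 was the only other cytosolic member whose groups did not overlap, with 580.8, 569.3 and 536.3 CPM in FOXP3 FL and 699.4, 590.2 and 597.8 CPM in FOXP3 ΔE2, and an edgeR adjusted p of 0.485. Non-overlap in either direction was thus seen for 2.53% of cytosolic members, where 27.1% of all genes tested showed it. Rps6, the substrate of S6 kinases, had 923.6, 866.5 and 776.7 CPM in FOXP3 FL and 1071, 917.1 and 776.8 CPM in FOXP3 ΔE2, and the groups overlapped. Rps27a, which is made as a fusion with ubiquitin, differed by 0.04 ± 0.13 (log2, SE). Rps29, Rps15a, Rps23 and Rps12 had log2 differences of 0.21, -0.07, -0.07 and -0.05, with edgeR adjusted p of 0.346 or more.

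In the large subunit all 47 members had log2 differences between -0.09 (Rpl12, at the base of the stalk) and 0.23 (Rpl41, the shortest ribosomal protein). The 3 stalk proteins, which recruit translation factors, did not pass: Rplp0, Rplp1 and Rplp2 had log2 differences of 0.16, 0.07 and 0.12, and edgeR adjusted p of 0.544, 0.822 and 0.648. Rplp0 was at 2230, 2410 and 2436 CPM in FOXP3 FL and 2910, 2593 and 2394 CPM in FOXP3 ΔE2, so its groups overlapped through FOXP3 ΔE2 replicate 3. Rpl5 and Rpl11, which bind Mdm2 when ribosome assembly is disturbed, differed by -0.02 ± 0.13 and -0.05 ± 0.13 (log2, SE). Rpl4 and Rpl3, core proteins of the large subunit, had log2 differences of 0.20 and 0.15, and Rpl22, which T cell development is known to need, -0.05. Rpl7, Rpl10, Rpl36a and Rpl39, each of which has a known paralogue, lay between -0.02 and 0.05.

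For the mitochondrial ribosome, 2 of 76 members rose in FOXP3 ΔE2 and none fell. They are Mrps18b and Mrps5, both of the small subunit, so 2.63% of members were called against 6.17% of all genes in edgeR's quasi-likelihood test. The authors' deposited table also has these 2 members, and no other of the 155, under a false discovery rate of 0.05. Most of the other members leaned the same way by less: the median log2 fold change was 0.17, with a middle 50% from 0.08 to 0.24, and 67 of 76 fitted differences were above 0, against 49.5% of all genes. With subunits taken from the names, the median was 0.16 in the small and 0.18 in the large subunit. Mrps18a and Mrps30 counted as small there, although their products sit in the large subunit. The median over all 76 members was above 0 under each alternative fitted. It ran from 0.03 with library totals only, where the median of all genes was -0.14, to 0.22 without FOXP3 ΔE2 replicate 3.

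Mrps18b is 1 of 3 mammalian paralogues of the bacterial protein S18. It had 23.3, 24.8 and 23.9 CPM in FOXP3 FL and 34.1, 43.3 and 40.4 CPM in FOXP3 ΔE2. The groups were far apart, with means of 24.0 ± 0.776 and 39.3 ± 4.68 CPM (SD, n = 3 each). The log2 difference was 0.71 ± 0.13 (SE) with an edgeR adjusted p of 0.00213, and the adjusted p lay between 1.1e-07 and 0.0244 over all alternatives that included it. The gene lies at chr17:35910379-35916389 on the minus strand (mm10). Its exons overlap those of Gm16279 on the plus strand, which was at 1.61 to 4.42 CPM over the 6 libraries.

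The paralogue Mrps18a, whose product sits in the large subunit in mammalian structures despite its name, had 69.0, 79.9 and 77.1 CPM in FOXP3 FL and 91.7, 96.5 and 79.7 CPM in FOXP3 ΔE2. Its groups overlapped only through FOXP3 FL replicate 2 and FOXP3 ΔE2 replicate 3, and its log2 difference of 0.25 had an edgeR adjusted p of 0.223. The paralogue Mrps18c, which the name rule did not match and which is named here with its value known, had a log2 difference of -0.01 with an edgeR adjusted p of 0.987.

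Mrps5 is the mitochondrial counterpart of Rps2. It had 66.0, 52.6 and 57.1 CPM in FOXP3 FL and 95.2, 92.7 and 71.0 CPM in FOXP3 ΔE2. All FOXP3 ΔE2 libraries were above all FOXP3 FL libraries, though FOXP3 ΔE2 replicate 3 was closer to FOXP3 FL replicate 1 than to the other FOXP3 ΔE2 libraries. The log2 difference was 0.56 ± 0.13 (SE) with an edgeR adjusted p of 0.0150. The call was lost without FOXP3 FL replicate 2 (adjusted p 0.0754), without FOXP3 FL replicate 3 (0.0613) and without FOXP3 ΔE2 replicate 2 (0.117). Mrps5 lies at chr2:127587222-127606829 on the plus strand (mm10), and its exons overlap no other gene of the table.

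**Figure D3:**
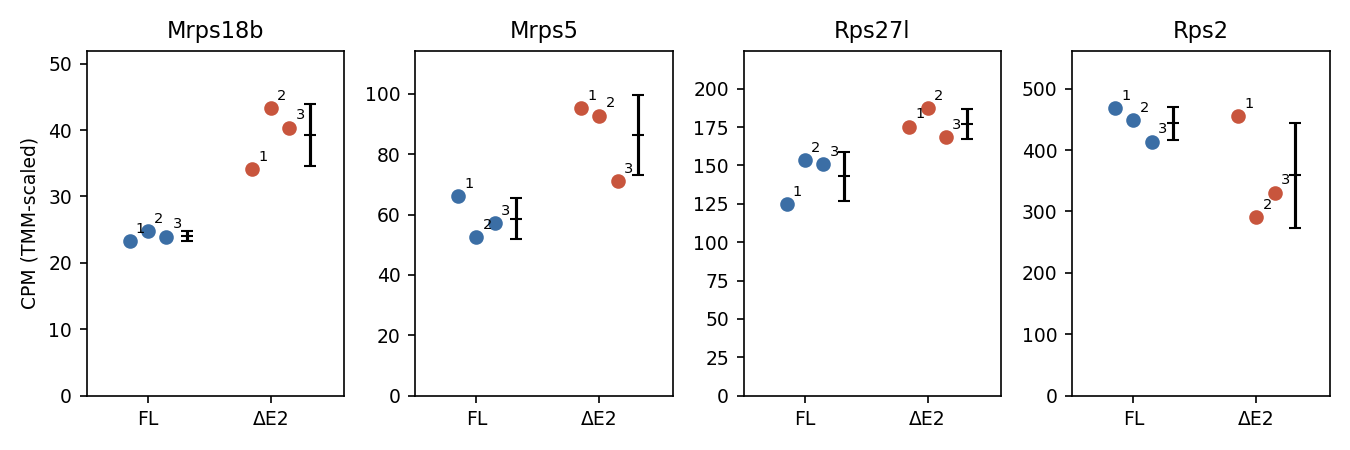
TMM-scaled CPM of Mrps18b, Mrps5, Rps27l and Rps2 in each library (points, numbered by replicate) with the mean and SD of the group (bars, n = 3), axes starting at 0. Mrps18b, Mrps5 and Rps27l are higher in all 3 ΔE2 libraries than in any FL library, and Rps2 is lower in ΔE2 replicates 2 and 3 but not in replicate 1.

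Other mitochondrial members with the least p in the upward direction were Mrpl35, Mrpl50, Mrps27 and Mrpl34, all structural proteins. Mrpl35 had 50.2, 53.9 and 44.7 CPM in FOXP3 FL and 65.2, 71.6 and 55.6 CPM in FOXP3 ΔE2, which did not overlap, with a log2 difference of 0.37 and an edgeR adjusted p of 0.0798. Mrpl50, Mrps27 and Mrpl34 had log2 differences of 0.39, 0.33 and 0.30 with edgeR adjusted p of 0.0913, 0.108 and 0.127. With the replicate block, edgeR's quasi-likelihood test called 13 mitochondrial members higher (17.1%) and 1 lower (1.32%), where it called 11.5% and 10.1% of all genes. The 13 are Mrps18b, Mrps5, the 4 above, Mrpl28, Mrpl2, Mrps17, Mrpl45, Mrpl55, Mrps28 and Mrpl22, of which the last 6 were named after their values were seen.

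Of the members below 0, Mrps26 had the largest difference. It had 17.7, 16.1 and 15.4 CPM in FOXP3 FL and 13.8, 10.5 and 12.5 CPM in FOXP3 ΔE2. The groups did not overlap, and the log2 difference of -0.42 ± 0.15 (SE) had an edgeR adjusted p of 0.110, or 0.0179 with the replicate block. Mrps30, whose product also sits in the large subunit, did not overlap either, with 13.0, 10.2 and 10.9 CPM in FOXP3 FL and 9.90, 8.36 and 9.73 CPM in FOXP3 ΔE2 and an adjusted p of 0.344. Mrpl52, Mrps24, Mrpl38 and Mrps35 had log2 differences of -0.17, -0.15, -0.06 and -0.06 and edgeR adjusted p of 0.425 or more. Mrps21 and Mrpl18, the most abundant members, had log2 differences of 0.03 and 0.21.

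**Figure D4:**
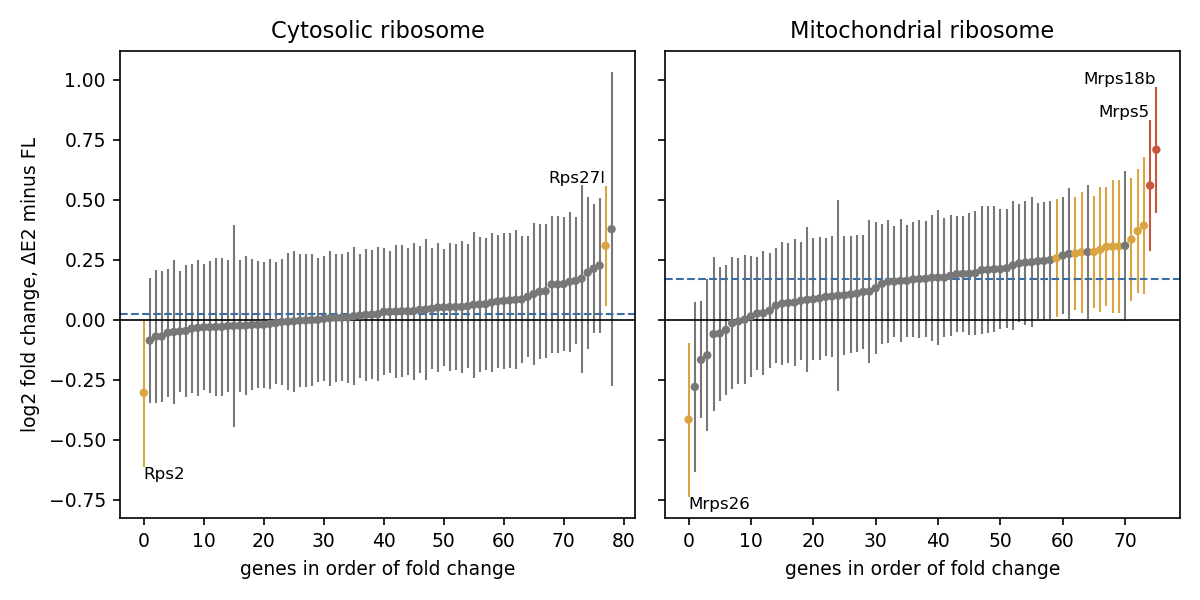
Log2 difference (FOXP3 ΔE2 minus FOXP3 FL) of each gene with its 95% interval, in order of size, cytosolic left and mitochondrial right, with the median as a dashed line. Genes called by edgeR (adjusted p under 0.05) are red and genes called only with the replicate block are amber: Mrps18b and Mrps5 are red, and the cytosolic median of 0.02 lies below the mitochondrial median of 0.17.

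Summed over the 76 mitochondrial members, the level was 3922, 4056 and 3788 CPM in FOXP3 FL and 4667, 4634 and 3972 CPM in FOXP3 ΔE2. FOXP3 ΔE2 replicates 1 and 2 stood above the FOXP3 FL libraries, and FOXP3 ΔE2 replicate 3 lay among them. The group means were 3922 ± 134 and 4425 ± 392 CPM (SD, n = 3 each), a log2 ratio of 0.17. In FOXP3 ΔE2 replicates 1 and 2, 72 and 61 of 76 members were above their own mean, against 14 in FOXP3 ΔE2 replicate 3 and 9 to 29 in the FOXP3 FL libraries. In 20 members all FOXP3 ΔE2 libraries lay above all FOXP3 FL libraries (26.3%, against 13.6% of all genes), and in 2 all lay below (2.63%, against 13.5%). The 2 libraries with the higher values are those with the higher shares of reads assigned to genes and crossing junctions, given above. Their sums of the RNA quality genes were the lowest, at 1749 and 1740 CPM, but FOXP3 FL replicate 2 was close to them at 1751 CPM. The T cell and NK cell marker sums were also higher in FOXP3 ΔE2. The part of these measures in the result was not tested.

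Side by side, the mitochondrial median exceeded the cytosolic median by 0.15 on the log2 scale, and by 0.10 to 0.18 over all alternatives. This difference between sets is a description, since genes of 1 set are not replicates. The cytosolic median changed sign with the setting: it was -0.11 with library totals only, -0.01 with upper quartile scaling, -0.02 without FOXP3 FL replicate 3 and -0.06 without FOXP3 ΔE2 replicate 1, and between 0.01 and 0.09 otherwise.

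**Figure D5:**
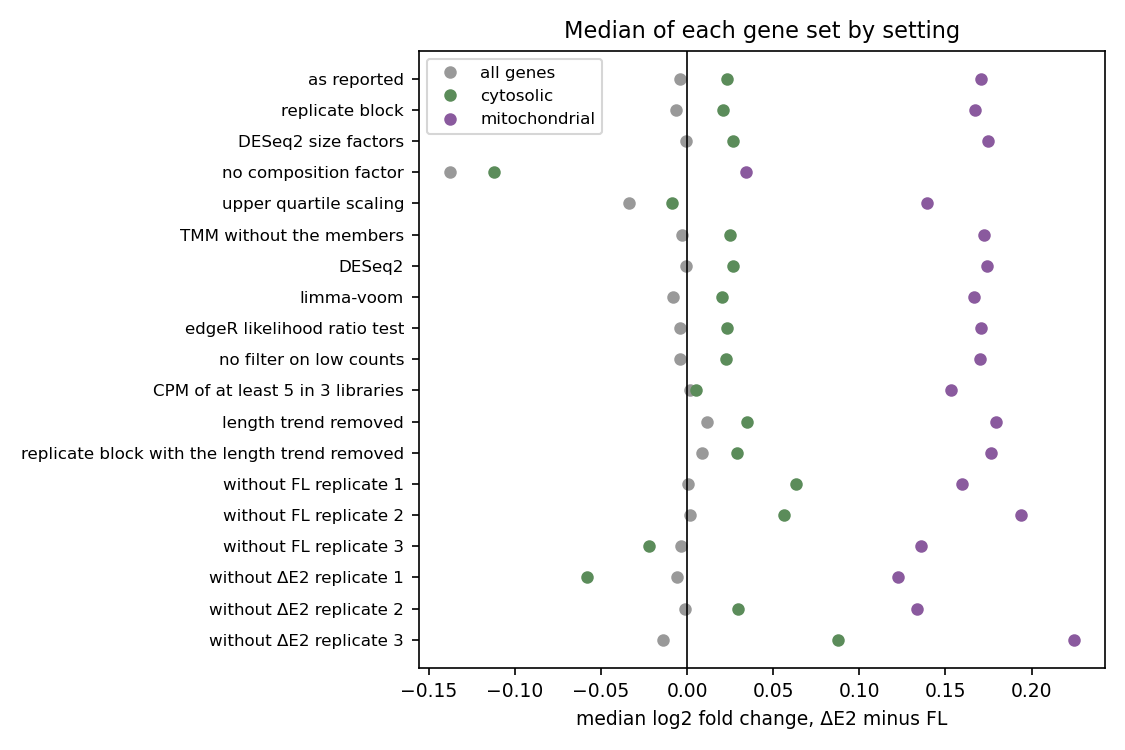
Median log2 difference (FOXP3 ΔE2 minus FOXP3 FL, horizontal axis) of all genes (grey), cytosolic (green) and mitochondrial (purple) ribosomal protein genes under each processing alternative (vertical axis). The mitochondrial median runs from 0.03 to 0.22 and lies right of the cytosolic median in each setting shown, while the cytosolic median runs from -0.11 to 0.09.

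Paralogues and ribosomal proteins outside the name rule were examined as lists. These lists and those of factors below were chosen with earlier results of these data known. Of 8 other cytosolic ribosomal proteins tested, 0 passed in edgeR's quasi-likelihood test, where 6.17% of all genes did. With the block, which called 11.5% of all genes higher, 1 was called higher, Rpl7l1. It had 129.6, 144.5 and 120.8 CPM in FOXP3 FL and 162.7, 195.6 and 138.5 CPM in FOXP3 ΔE2. Fau, made as a fusion with a ubiquitin-like protein, had a log2 difference of 0.03, and Rps3a1, named with its value known, had 0.06. The minor paralogues were below their partners in level per length, with Rpl7l1 at 57.0 against 429 RPKM for Rpl7, Rpl22l1 at 52.0 against 67.9 RPKM for Rpl22, and Rps4l at 3.16 against 463 RPKM for Rps4x. Of these, Rps4l has no annotated coding transcript. Of 6 other mitochondrial ribosomal proteins, 1 rose, where 3.75% of all genes were called higher. It was Ptcd3, an RNA-binding protein of the small subunit. Ptcd3 was at 91.5, 105.3 and 104.1 CPM in FOXP3 FL and 116.7, 159.6 and 134.8 CPM in FOXP3 ΔE2. Its groups did not overlap, with a log2 difference of 0.45 and an edgeR adjusted p of 0.0389. The Ptcd3 call was lost without any 1 of 5 libraries (all but FOXP3 ΔE2 replicate 1), with library totals only and in limma-voom, where the adjusted p reached 0.251 at most. Chchd1, Dap3 and Aurkaip1 had log2 differences of 0.21, 0.14 and 0.11 and did not pass.

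The factors that use and build the mitochondrial ribosome included 3 of 36 that rose and 0 that fell in edgeR's quasi-likelihood test, where 3.75% of all genes were called higher. With the block, which called 11.5% of all genes higher, 10 were higher and 0 lower. The median log2 difference was 0.19. Leaving out 1 library gave 1 to 4 higher, 1 each without FOXP3 FL replicate 2 and without FOXP3 ΔE2 replicate 2. Of all genes, 266 and 125 were called higher in those omissions, against 548 with no library left out. Fastkd2, which binds the large mitochondrial ribosomal RNA, had 42.7, 50.4 and 57.4 CPM in FOXP3 FL and 83.0, 126 and 90.3 CPM in FOXP3 ΔE2, a log2 difference of 0.99 with an edgeR adjusted p of 0.00174, and it was called under each alternative run. Eral1, a chaperone of the small mitochondrial ribosomal RNA, and Tufm, the mitochondrial elongation factor Tu, rose by 0.50 and 0.52 on the log2 scale, with edgeR adjusted p of 0.0186 and 0.0377. The Eral1 call was lost without FOXP3 FL replicate 1 or 2 or FOXP3 ΔE2 replicate 2, the Tufm call without FOXP3 FL replicate 2 or 3 or FOXP3 ΔE2 replicate 1 or 2, and both with library totals only. The Tufm call was also lost under upper quartile scaling and in limma-voom. The 13 genes of mitochondrial DNA, whose messages these ribosomes translate, had 0 calls in edgeR's quasi-likelihood test, 1 higher in DESeq2, 8 higher and 0 lower with the block (11.5% of all genes higher), and a median of 0.29. That median was 0.50 without FOXP3 FL replicate 1, 0.15 without FOXP3 FL replicate 2 and 0.15 with library totals only. mt-Cytb had 4185, 2861 and 2933 CPM in FOXP3 FL and 4065, 4563 and 4419 CPM in FOXP3 ΔE2, where FOXP3 FL replicate 1 lay among the FOXP3 ΔE2 libraries.

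Around the cytosolic ribosome, several genes for proteins that build it rose. Of 73 genes for ribosome biogenesis and RNA polymerase I, 10 rose and 0 fell in edgeR's quasi-likelihood test, where 3.75% of all genes were called higher, and the median was 0.30. With the block 43 were higher and 0 lower, where 11.5% of all genes were called higher. The count of higher genes was 1 without FOXP3 ΔE2 replicate 2, 3 or 4 without a FOXP3 FL library, and 18 and 21 without FOXP3 ΔE2 replicate 1 and 3. With library totals only, 4 were higher and 1 lower. The number of all genes called higher also changed, from 548 with no library left out. It was 125 without FOXP3 ΔE2 replicate 2 and 249, 266 and 360 without FOXP3 FL replicates 1 to 3. Without FOXP3 ΔE2 replicate 1 and 3 it was 780 and 542, and with library totals only 264, with 954 lower. Ftsj3, which processes ribosomal RNA precursors, had 118.4, 121.8 and 121.1 CPM in FOXP3 FL and 173.1, 206.9 and 171.2 CPM in FOXP3 ΔE2. Its groups were well apart, with a log2 difference of 0.61 and an edgeR adjusted p of 0.00435, and it was called under each alternative run. Rrp12 and Utp20, also of the precursor-processing machinery, and Nop56, a core protein of the particles that guide RNA methylation, rose by 0.59, 0.50 and 0.58 on the log2 scale. Each of these 3 calls was lost without FOXP3 ΔE2 replicate 2, those of Utp20 and Nop56 also without FOXP3 FL replicate 2, that of Utp20 without FOXP3 FL replicate 3 and that of Nop56 without FOXP3 FL replicate 1. Of 40 cytosolic translation factors 1 rose and 0 fell in edgeR's quasi-likelihood test, where 3.75% and 2.43% of all genes did. With the block 6 were higher and 4 lower, where 11.5% and 10.1% of all genes were. The factor that rose was Eif2s3x, a subunit of the factor that brings the initiator tRNA. Its log2 difference was 0.46 with an edgeR adjusted p of 0.0444. The 40 factors had a median of 0.10. The median was 0.02 without FOXP3 ΔE2 replicate 1, 0.05 without FOXP3 FL replicate 3 or FOXP3 ΔE2 replicate 2, 0.18 without FOXP3 ΔE2 replicate 3 and -0.04 with library totals only. Without FOXP3 ΔE2 replicate 1, 2 factors were lower, and 3 with library totals only. Of all genes, 587 and 954 were lower in those settings, against 355 in the main fit. DESeq2, the edgeR likelihood ratio test, upper quartile scaling and the filter at 5 CPM each gave 1 factor lower. The block with the length correction gave 4 lower. The Eif2s3x call was lost without any FOXP3 FL library and without FOXP3 ΔE2 replicate 2, and no factor was called higher under upper quartile scaling, library totals only, limma-voom or the length correction. In the elongation factors Eef1a1 and Eef2, named with their values known, the log2 differences were 0.03 and 0.07.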

How the data were processed

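The deposited table holds raw read counts per gene for the 6 libraries, with gene names, IDs and exon lengths, and the authors' own log2 fold change, p-value and FDR columns per the file headers. Per the submitters' processing notes, the tools were bcl2fastq, STAR 2.5, featureCounts, Subread 1.5.1 and edgeR 3.20.8, with build mm10. Strand and multi-mapping settings, and the rule that chose the 14777 genes, are not given in the sources used here. Between 48.4% and 49.8% of coding reads were sense, so the libraries did not mark strand.

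Counts were analysed in R 4.3.3 with edgeR 4.0.16: filterByExpr kept 14632 genes (145 left out), TMM scaled the libraries, and glmQLFit and glmQLFTest (robust) compared FOXP3 ΔE2 with FOXP3 FL over all 6 libraries, with Benjamini-Hochberg adjustment over all genes and a threshold of 0.05. RPKM divides the scaled CPM by the deposited length. Sums and medians over a set carry no test. Named genes are all called members, the 6 with the smallest p in each direction and the 3 highest and lowest RPKM of each ribosome, the extremes of fold change at 5 CPM or more, members of fixed roles, and up to 4 genes of each other list. A gene on another list that the name rule also matched (Mrpl58) counts only as a member. Members and lists were chosen with earlier results of these data known.

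Replicates share numbers across groups. Deviations from the group means of same-numbered libraries correlated over all genes at r = 0.39, 0.21 and 0.19, and those of other pairs at -0.29 to 0.10, so a fit with the number as a block is given as well, although what a shared number stands for is not in the labels. The biological coefficient of variation was 13.1% without and 9.20% with the block, which leaves 2 residual degrees of freedom per gene. The median prior degrees of freedom, the weight given to a spread shared over genes, were 17.2 without and 291 with the block. The block p-values thus rest mostly on that shared spread and little on a gene's own. With 3 libraries a group, an exact permutation test of a single value could not go below 0.1, so none was used. Alternatives used DESeq2 1.42.0, limma 3.58.1 (voom), other scalings, filters, a length correction and the omission of each library. The tests were also run on counts simulated without a replicate effect or shared library shifts, which cannot show how such shifts affect the calls. Copies were searched with BLAST 2.17.0, and transcript starts are from RefSeq. 1 gene of the other lists is not reported here.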

Additional observations from a re-analysis of the deposited data

How the results depend on the processing

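Mrps18b was called under each alternative that included it, and Mrps5 under all but the omission of 3 single libraries and a threshold of 0.01. That threshold left 1 mitochondrial member higher and 184 genes higher and 57 lower. Among members whose exons overlap no other gene, 1 mitochondrial member was higher, Mrps5. Mrps18b was not among them because its exons overlap those of Gm16279. The replicate block gave 1678 genes higher and 1471 lower, with 13 mitochondrial members higher and 1 lower and 1 cytosolic member in each direction. The block with a length correction gave 1763 and 1285 genes, 16 and 1 mitochondrial members, and 1 and 1 cytosolic members. Library totals without a composition factor gave 264 genes higher and 954 lower, against 548 and 355, with 1 mitochondrial member lower, medians of -0.112 (cytosolic) and 0.0344 (mitochondrial), and log2 ratios of the sums of -0.0873 and 0.0368. In that setting the median of all genes was -0.14, so both sets kept nearly the same distance to it. limma-voom gave 227 genes lower. Leaving out 1 library gave 125 to 780 genes higher and 51 to 587 lower, 1 to 6 mitochondrial members higher, 0 to 1 cytosolic members lower (Rps2), cytosolic medians of -0.06 to 0.09 and mitochondrial medians of 0.12 to 0.22, and log2 ratios of the sums of -0.04 to 0.12 (cytosolic) and 0.13 to 0.24 (mitochondrial). Over 46 named members and all alternatives, 847 of 873 values kept their side of the threshold, 22 gained a call and 4 lost one. In 49 cases a difference that was not called changed sign, 10 of them with library totals only. Why the settings differ was not tested. Counts of members with near-identical copies depend on how the authors assigned reads, which could not be varied here.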
